A study of Mus musculus with 12 samples.

Results

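Knockdown of Sdc1 was followed in B16 cells, an established mouse melanoma line, that had all been stimulated with IFNγ. Cells transfected with a short hairpin RNA against Sdc1 (shSdc1) were set against cells with a hairpin against RFP (shRFP), the control, and both had received 10 ng/ml IFNγ for 24 h. The cells were kept in DMEM with 10% FBS, and mRNA libraries from TRIzol-extracted total RNA were read as paired ends on an Illumina HiSeq instrument. Each group held 3 libraries, so that 6 of the series' 12 libraries enter the comparison. The other 6 are the same kinds of cells with no IFNγ, and they served for a shared estimate of the spread and for the test of whether the knockdown effect differed with and without the cytokine. Every gene with enough counts was taken, which gave 14089 tested genes of 56093 table entries. How many hairpins were used, and whether a line was 1 clone or a pool, is not given in the sources used here. An effect of a hairpin on other transcripts and an effect of losing Sdc1 cannot be told apart. Nothing in the labels ties a library to a culture of its own, and p-values therefore measure only the spread between libraries, which may be technical.

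IFNγ binds a receptor made of IFNGR1 and IFNGR2, whose kinases JAK1 and JAK2 pass the signal on by phosphorylation. Factors so activated bind GAS sites in promoters, for example that of the transcription factor IRF1, while a complex with STAT2 and IRF9, and IRFs themselves, bind the interferon-stimulated response element (ISRE). The genes so induced serve antigen presentation, antiviral defence, cell-autonomous immunity and the recruitment of T cells. Syndecan-1, the product of Sdc1, spans the plasma membrane and bears heparan sulfate, a sulfated sugar chain that holds growth factors, chemokines and cytokines, IFNγ among them, at the cell surface. B16 cells descend from pigment cells and make melanin under the transcription factor MITF.

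Levels are in CPM, counts divided by the TMM-scaled library size, given in the order of the replicate numbers, and a mean is given ± SD with n = 3. A change is a log2 fold change of knockdown over control, both with IFNγ, given ± its standard error (SE). Genes are said to rise or fall only where edgeR's quasi-likelihood test gave a Benjamini-Hochberg adjusted p under 0.05 over all 14089 genes. By that rule 5121 genes passed (36.3%), 2668 of them higher (18.9%) and 2453 lower (17.4%) in the knockdown. List counts with IFNγ below are to be read against these shares, and a count near them does not set a list apart. Most changes were small: 3814 of the genes that passed moved by less than 1.5-fold, 540 rose and 107 fell by at least 2-fold, and 142 rose and 14 fell by at least 4-fold. The ranges of the 3 control and 3 knockdown libraries did not overlap for 44.9% of tested genes, and the median change over all tested genes was 0.017. The 6 libraries held 14484863 to 18689331 counts, and knockdown and control libraries lay apart on the component that held most of their variance (60.1%). Of the libraries without IFNγ, shSdc1 replicate 3 stood apart, with 4.79% of its counts in 1 entry of the table against 0.0842% to 0.195% in the other 11. More genes had a count in the knockdown libraries, 20100 to 20738, than in the control libraries, 19364 to 19692. Among genes with a mean under 1 CPM over all libraries 11.4% rose and 1.82% fell, and among those over 100 CPM 19.3% rose and 33.3% fell. A gene barely counted in the control was tested only through libraries of other groups, and such entry favoured a rise. Several list counts below include such genes.

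Sdc1 itself, which checks the labels, was lower in each knockdown library with IFNγ than in any control library. Its levels were 83.3, 79.6 and 103 CPM with shRFP and 27.00, 25.1 and 25.4 CPM with shSdc1, a change of -1.77 ± 0.081 (adjusted p = 6.53e-12). The knockdown was partial, and its size with IFNγ differed from that without by -0.11 ± 0.12, which did not pass (adjusted p = 0.613). Among 13 tested genes of other heparan sulfate carriers 9 rose and 2 fell. Gpc4, which encodes a lipid-anchored glypican, rose from 0.462 to 2.73 CPM. Sdc4 and Sdc3, the syndecans of focal adhesions and of nerve tissue, rose by 0.48 ± 0.060 and 0.73 ± 0.064, while Sdc2 fell by 0.31 and the semaphorin receptor Nrp1 fell by 0.34 on the log2 scale. Perlecan (Hspg2) and agrin (Agrn), the heparan sulfate proteoglycans of basement membranes, rose by 0.80 ± 0.055 and 0.63 ± 0.047, and Cspg4, the melanoma-associated chondroitin sulfate proteoglycan, by 0.91 ± 0.12. Of the enzymes that build, sulfate or break down heparan sulfate, 10 of 32 rose, 8 fell and 14 did not pass, and the 10 became 6 without shRFP with IFNγ replicate 3. Of all tested genes 18.9% rose and 17.4% fell. Xylt1, which adds the first sugar of the chain to the core protein, rose by 0.73 ± 0.087, and Ext1, a polymerase of the chain, by 0.43 ± 0.078. Ndst3, an N-sulfotransferase, and Hpse, the heparanase that cuts the chain, fell, with changes of -0.69 ± 0.083 and -0.54 ± 0.11.

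Most receptor and signalling genes for IFNγ did not pass the test in the knockdown. Ifngr2 stood at 50.1, 53.5 and 57.4 CPM in the control and at 60.3, 65.7 and 64.4 CPM in the knockdown libraries, a change of 0.24 ± 0.065 (adjusted p = 0.00708). Ifngr1 changed by 0.29 ± 0.093, and this call ended without shRFP with IFNγ replicate 2 (adjusted p = 0.0729) and without shSdc1 with IFNγ replicate 1 (adjusted p = 0.116). Irf1, a direct target of the pathway, stood at 377, 399.7 and 364 CPM in the control and 376, 349 and 361 CPM in the knockdown libraries, a change of -0.070 ± 0.055 that did not pass (edgeR adjusted p = 0.346). Irf9 changed by 0.090 ± 0.050 and did not pass either. Stat2, the partner of IRF9 in the ISRE-binding complex, rose. It stood at 284, 269 and 259 CPM in the control and 394, 398 and 377 CPM in the knockdown libraries, with no overlap, a rise of 0.53 ± 0.054 (adjusted p = 3.54e-07), and its rise with IFNγ exceeded that without by 0.50 ± 0.088 (adjusted p = 0.00182). Of the 30 receptors, kinases, STATs and inhibitors tested, 10 rose, 20 did not pass and the median change was 0.089. Socs1 and Socs3, feedback inhibitors of JAKs, did not pass at 0.41 ± 0.31 and 0.26 ± 0.11, while Socs5 rose by 0.37 ± 0.057. Among the IRF list 5 of 14 rose and 2 fell. Irf7, which amplifies type I interferon responses, stood at 7.87, 7.29 and 8.80 CPM in the control and at 13.6, 16.8 and 13.7 CPM in the knockdown libraries, without overlap. Irf5 rose by 1.92 ± 0.46 from a low level of 0.478 CPM, and Irf3, which acts in the first wave of interferon induction, fell by 0.27 on the log2 scale.

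Antiviral genes that interferon induces rose more broadly. Of the 46 interferon-induced antiviral effectors tested, 37 rose and the other 9 did not pass, with a median change of 0.76 against 0.017 over all genes, where 18.9% rose. For 15 of these genes the effect with IFNγ exceeded that without, against 4.58% of all genes, and for 1 it was smaller, against 5.15% of all genes. The promoter of Oas3, of this list, is shown to place an ISRE motif beside the values, with that of Cxcl1, a chemokine described further on, for contrast. Each is the 250 bases before the RefSeq start, build GRCm38.p6, read 5′ to 3′ on the gene's strand, with matches to the ISRE core GAAANNGAAA or to the NF-kB site (kB) in capitals. Oas3 lies at chr5:120777660-120777909 on the minus strand, with the ISRE core at -75 and a kB match at -23 from the start. Cxcl1 lies at chr5:90890995-90891244 on the plus strand, with 2 overlapping kB matches at -71 and -70 and no ISRE core in these letters.
Oas3: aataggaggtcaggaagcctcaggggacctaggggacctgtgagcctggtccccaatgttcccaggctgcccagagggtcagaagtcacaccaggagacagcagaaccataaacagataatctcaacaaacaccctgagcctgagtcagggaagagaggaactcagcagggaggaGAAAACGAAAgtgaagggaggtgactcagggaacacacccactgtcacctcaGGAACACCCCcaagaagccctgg
Cxcl1: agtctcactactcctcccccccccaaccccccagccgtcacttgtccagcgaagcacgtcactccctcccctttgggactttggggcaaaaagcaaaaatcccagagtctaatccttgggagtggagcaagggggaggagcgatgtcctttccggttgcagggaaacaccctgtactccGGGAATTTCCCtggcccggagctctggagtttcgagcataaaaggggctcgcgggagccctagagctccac
The ISRE core was found on either strand in 22 of the 38 antiviral effectors with a promoter in the table (57.9%), and in 3.68% of the 9748 tested genes with one, in windows from 250 bases before to 50 after the start. Of the genes that rose by at least 2-fold 27 of 361 (7.48%) held it, and of those at least 2-fold lower 2.99%. The core was also in 4 of 4 promoters of guanylate-binding proteins, a list with rises and falls described further on. It was in 7 of 57 promoters of cytosolic ribosomal proteins (12.3%), a list that mostly fell. A match describes the letters only.

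Oas3, a 2′-5′ oligoadenylate synthetase that double-stranded RNA activates, showed the largest rise of the antiviral list. It was at 2.25, 1.43 and 1.48 CPM in the control libraries and at 22.1, 25.2 and 22.2 CPM in the knockdown libraries. Oas2, its relative, rose by 1.74 ± 0.11, and Oas1a, a member of a cluster of near-identical genes whose reads may be shared, by 0.84 ± 0.096. Apobec3, a cytidine deaminase that restricts retroviruses, stood at 0.397, 0.374 and 0.775 CPM in the control and 5.05, 6.20 and 4.33 CPM in the knockdown, with no overlap. Ifi44 rose from 0.928 to 7.45 CPM, and Slfn8, of the Schlafen family that limits translation of viral RNA, from 5.11 to 21.4 CPM. Mx1, a dynamin-like GTPase that blocks virus entry and transport, was at 30.4, 28.2 and 30.6 CPM in the control and 61.7, 62.02 and 55.6 CPM in the knockdown libraries. With no IFNγ its knockdown effect had the other sign, -0.56 ± 0.17, and the difference between both effects was 1.58 ± 0.19 (adjusted p = 6.5e-05). Ifit1 and Ifit3, which bind viral RNA or support that binding, changed by 1.09 ± 0.069 and 0.76 ± 0.041; Ifit3 has a near-identical neighbour, Ifit3b, with which reads can be shared. Bst2 (tetherin), Ifi27 and Lgals3bp, already at 598, 189 and 954 CPM in the control, did not pass at -0.020 ± 0.059, 0.038 ± 0.046 and 0.043 ± 0.032.

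**Figure D1:**
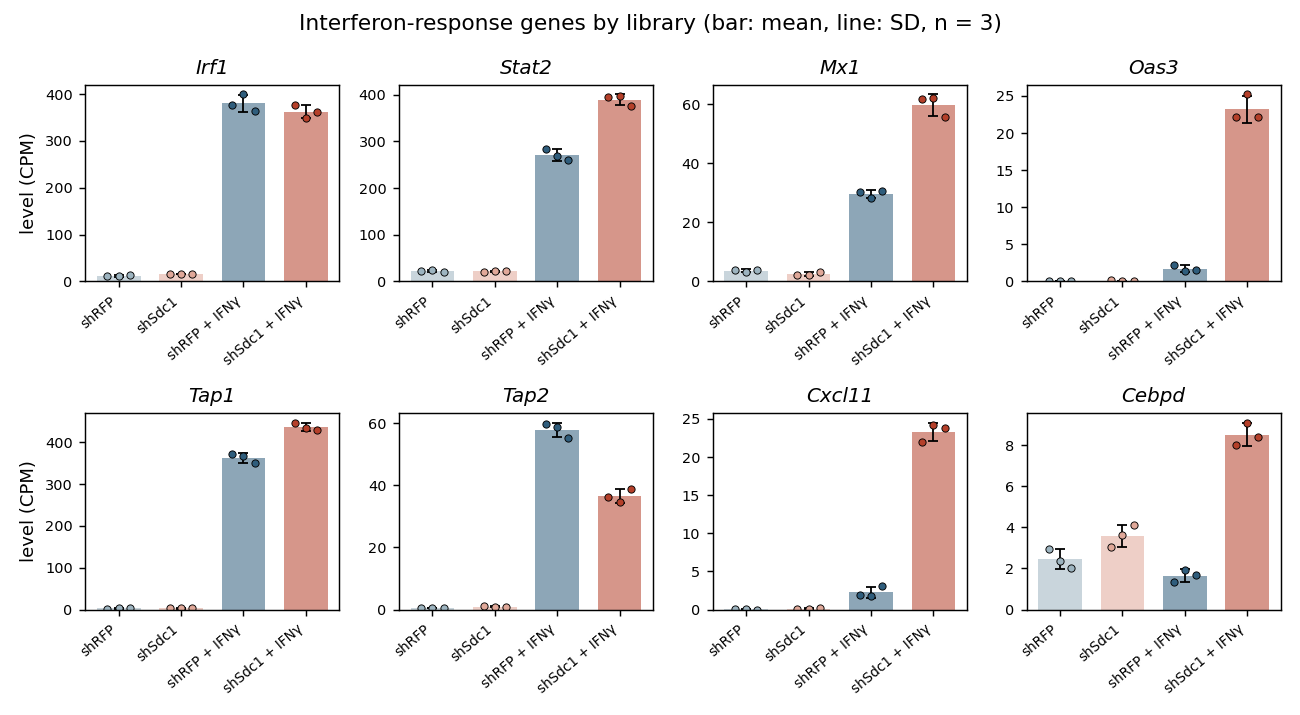
Levels in CPM of 8 interferon-response genes in all 4 groups: points are the 3 libraries of a group, bars the mean and lines the SD. With IFNγ the Irf1 levels of both hairpin groups overlap, Stat2, Mx1, Oas3, Tap1, Cxcl11 and Cebpd are higher with shSdc1, and Tap2 is lower.

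Sensors of foreign nucleic acid followed the same direction: 13 of 17 rose and 4 did not pass, with a median of 0.57. Ddx60, a helicase that assists RIG-I, rose from 7.52 ± 1.23 to 33.5 ± 1.74 CPM. The RNA helicases MDA5 (Ifih1) and LGP2 (Dhx58) rose by 0.69 ± 0.067 and 1.29 ± 0.071, and Zbp1, a sensor of left-handed nucleic acid that can start necroptosis, by 0.76 ± 0.075. Ifi204, of the DNA-sensing IFI16 family, rose from 7.43 to 22.4 CPM. The adaptors of these sensors did not pass: Mavs changed by -0.012 ± 0.086 and Tmem173 (STING) by 0.087 ± 0.066. In the ISG15 pathway, a ubiquitin-like modification, 5 of 7 genes rose. Isg15 stood at 69.7, 65.9 and 68.96 CPM in the control and 132, 134 and 114 CPM in the knockdown, and Usp18, which removes ISG15 and dampens receptor signalling, at 14.29, 17.8 and 14.7 and 34.3, 38.2 and 33.3 CPM. Both groups were apart for each gene. Of the ADP-ribosyltransferases 11 of 17 rose and 3 fell. Those that rose were led by Parp8 (0.72 ± 0.069), Parp14 (0.70 ± 0.049), an interferon-induced member, and its neighbour Dtx3l (0.66 ± 0.053), while the tankyrases Tnks and Tnks2, not known as interferon-induced, fell by 0.34 and 0.38 on the log2 scale.

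The GTPase families that IFNγ induces most strongly did not move as a block. Of the guanylate-binding proteins, which coat intracellular pathogens, 7 of 10 rose and 2 fell. Gbp5, which promotes inflammasome assembly, stood at 5.56, 5.17 and 5.42 CPM in the control and at 24.00, 24.04 and 21.9 CPM in the knockdown libraries, and Gbp9 rose from 27.7 to 71.4 CPM. Gbp2, at 1826, 1973 and 1716 CPM in the control and 1549.9, 1430.4 and 1553 CPM in the knockdown, fell by 0.28 on the log2 scale (adjusted p = 0.000269), and Gbp4 fell by 0.35. These genes lie in clusters of close copies, and reads may have been split between copies. Of the immunity-related GTPases 5 of 11 rose and 2 fell. Irgm1, a regulator of the family, fell by 0.17 on the log2 scale from 1533 CPM, whereas Irgm2 (0.012 ± 0.051) and Igtp (-0.16 ± 0.076) did not pass.

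Antigen presentation genes differed in direction. Of the MHC class I heavy chains and B2m 6 of 11 rose and 5 did not pass. H2-D1 was at 754, 753 and 878 CPM in the control and 942, 1002 and 879.7 CPM in the knockdown, a rise of 0.24 ± 0.054; with no IFNγ the knockdown effect was -0.26 ± 0.061, and the difference of 0.51 ± 0.082 passed (adjusted p = 0.000911). H2-T22 and H2-M3, non-classical heavy chains, rose by 0.52 ± 0.047 and 0.72 ± 0.16, and H2-Q4 by 0.55 ± 0.099; class I genes share long stretches of sequence, which makes their separate counts uncertain. B2m, the shared light chain, changed by -0.029 ± 0.031 and did not pass at 1856 CPM in the control. Of the genes for peptide loading and the proteasome 7 of 21 rose and 6 fell, with a median of -0.054. Nlrc5, the activator of class I transcription, rose by 0.33 ± 0.057, and the peptide editor Tapbp by 0.23 ± 0.043. The subunits of the peptide transporter went opposite ways: Tap1 rose by 0.27 ± 0.048, and Tap2 was lower. Tap2 was at 59.6, 58.8 and 55.1 CPM in the control and 36.1, 34.5 and 38.9 CPM in the knockdown, and Psmb5, the constitutive proteasome subunit that the immunoproteasome replaces, fell by 0.36 on the log2 scale. For 7 of these genes, Tap2 and Psme2 among them, the knockdown effect with IFNγ was below that without, against 5.15% of all genes. Psme2, of the activator that caps the immunoproteasome, did not pass with IFNγ at -0.12 ± 0.084, and its difference was -0.71 ± 0.14. In class II presentation 4 of 10 genes rose and 1 fell, Rfxap, of the RFX complex that binds class II promoters, with a change of -0.53 ± 0.098. Cd74, the invariant chain, stood at 105, 103 and 96.9 CPM in the control and 168, 166 and 167 CPM in the knockdown libraries, H2-Aa rose by 0.56 ± 0.12, and their activator Ciita did not pass at 0.067 ± 0.085.

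Of the ligands that lymphocytes read, 7 of 17 rose and 1 fell. Pvr, the ligand of TIGIT and DNAM-1, stood at 49.1, 50.6 and 51.3 CPM in the control and at 85.3, 82.2 and 79.2 CPM in the knockdown. Cd47, the signal that restrains phagocytosis, and Lgals9, the galectin that binds TIM-3, rose by 0.51 ± 0.060 and 0.69 ± 0.060. The groups were separated for Pvr, Cd47 and Lgals9 alike. Raet1d, a ligand of the activating receptor NKG2D, rose by 0.52 ± 0.12. Cd276 and Tnfrsf14, further lymphocyte ligands, did not pass at -0.0068 ± 0.14 and 0.11 ± 0.14. Among TNF ligands and receptors 7 of 16 rose and 2 fell. Tnfrsf9 (4-1BB), a costimulatory receptor of T cells, was at 0.529, 0.312 and 0.634 CPM in the control and 6.07, 5.91 and 7.80 CPM in the knockdown, a rise of 3.74 ± 0.32. Ngfr, the low-affinity neurotrophin receptor of neural crest cells, rose from 0.799 ± 0.219 to 5.36 ± 0.585 CPM. Tnfsf10 (TRAIL) and its receptor Tnfrsf10b both rose, by 1.21 ± 0.16 and 0.74 ± 0.18, while Tnfrsf1a, the main TNF receptor, did not pass at -0.062 ± 0.043.

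Chemokines gave the largest median of the lists, 2.01, with 9 of 13 risen and 4 not passing. Both the median and the 9 include Ccl2, Ccl20 and Cxcl2, with 1, 3 and 5 counts over the 3 control libraries. Such counts are under the filter, so these genes were tested only through libraries of other groups. Their entry favoured a rise over the control. The CXCR3 ligands, which draw effector T cells, rose. Cxcl9 stood at 13.8, 13.2 and 13.3 CPM in the control and 75.9, 74.1 and 77.3 CPM in the knockdown libraries, and Cxcl11 at 1.92, 1.81 and 3.03 and 21.96, 24.2 and 23.9 CPM, with no overlap for either gene. Ccl5, which draws T cells and monocytes, rose by 2.01 ± 0.085 with IFNγ and by 0.91 without, a difference of 1.11 ± 0.17 (adjusted p = 0.000524). The neutrophil attractant Cxcl1 was at 2.45, 0.997 and 2.68 CPM in the control and at 33.5, 31.7 and 28.99 CPM in the knockdown. Some chemokines were close to undetected in the control. Ccl2, a monocyte attractant, had 1 count over the 3 control libraries and 51 over the 3 knockdown libraries, a depth-scaled ratio of 45.7 with an exact 95% interval of 7.85 to 1842. Ccl20 had 3 and 68 counts, a ratio of 20.3 (6.67 to 101), and these intervals cover counting error only. Cx3cl1, a membrane-bound chemokine, rose from 3.89 to 8.55 CPM, while Ccl25 and Ccl28, epithelial chemokines, did not pass at 0.093 ± 0.079 and 0.35 ± 0.21. The kB motif stood in 5 of the 9 chemokine promoters in the table, in 12.2% of all tested genes with a promoter and in 17.7% of those at least 2-fold higher.

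Of the cytokines and growth factors 15 of 22 rose and 1 fell. Il34, Lif and Clcf1, given below, stood under the filter in the control. They were tested only through libraries of other groups, which favoured a rise. Csf1, the growth factor of macrophages, stood at 143, 138 and 136 CPM in the control and 275, 286 and 269 CPM in the knockdown libraries, without overlap. Il34, a further ligand of the CSF1 receptor, rose from 0.229 ± 0.214 to 2.43 ± 0.652 CPM, and Lif and Clcf1, which signal through gp130, to 1.75 and 1.27 CPM from 0.158 and 0.127 CPM. Spp1 (osteopontin) rose by 3.43 ± 0.24. Vegfa and Vegfc, the angiogenic and lymphangiogenic factors, did not pass at 0.040 ± 0.088 and 0.039 ± 0.095, and Vegfb fell by 0.39 on the log2 scale.

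**Figure D2:**
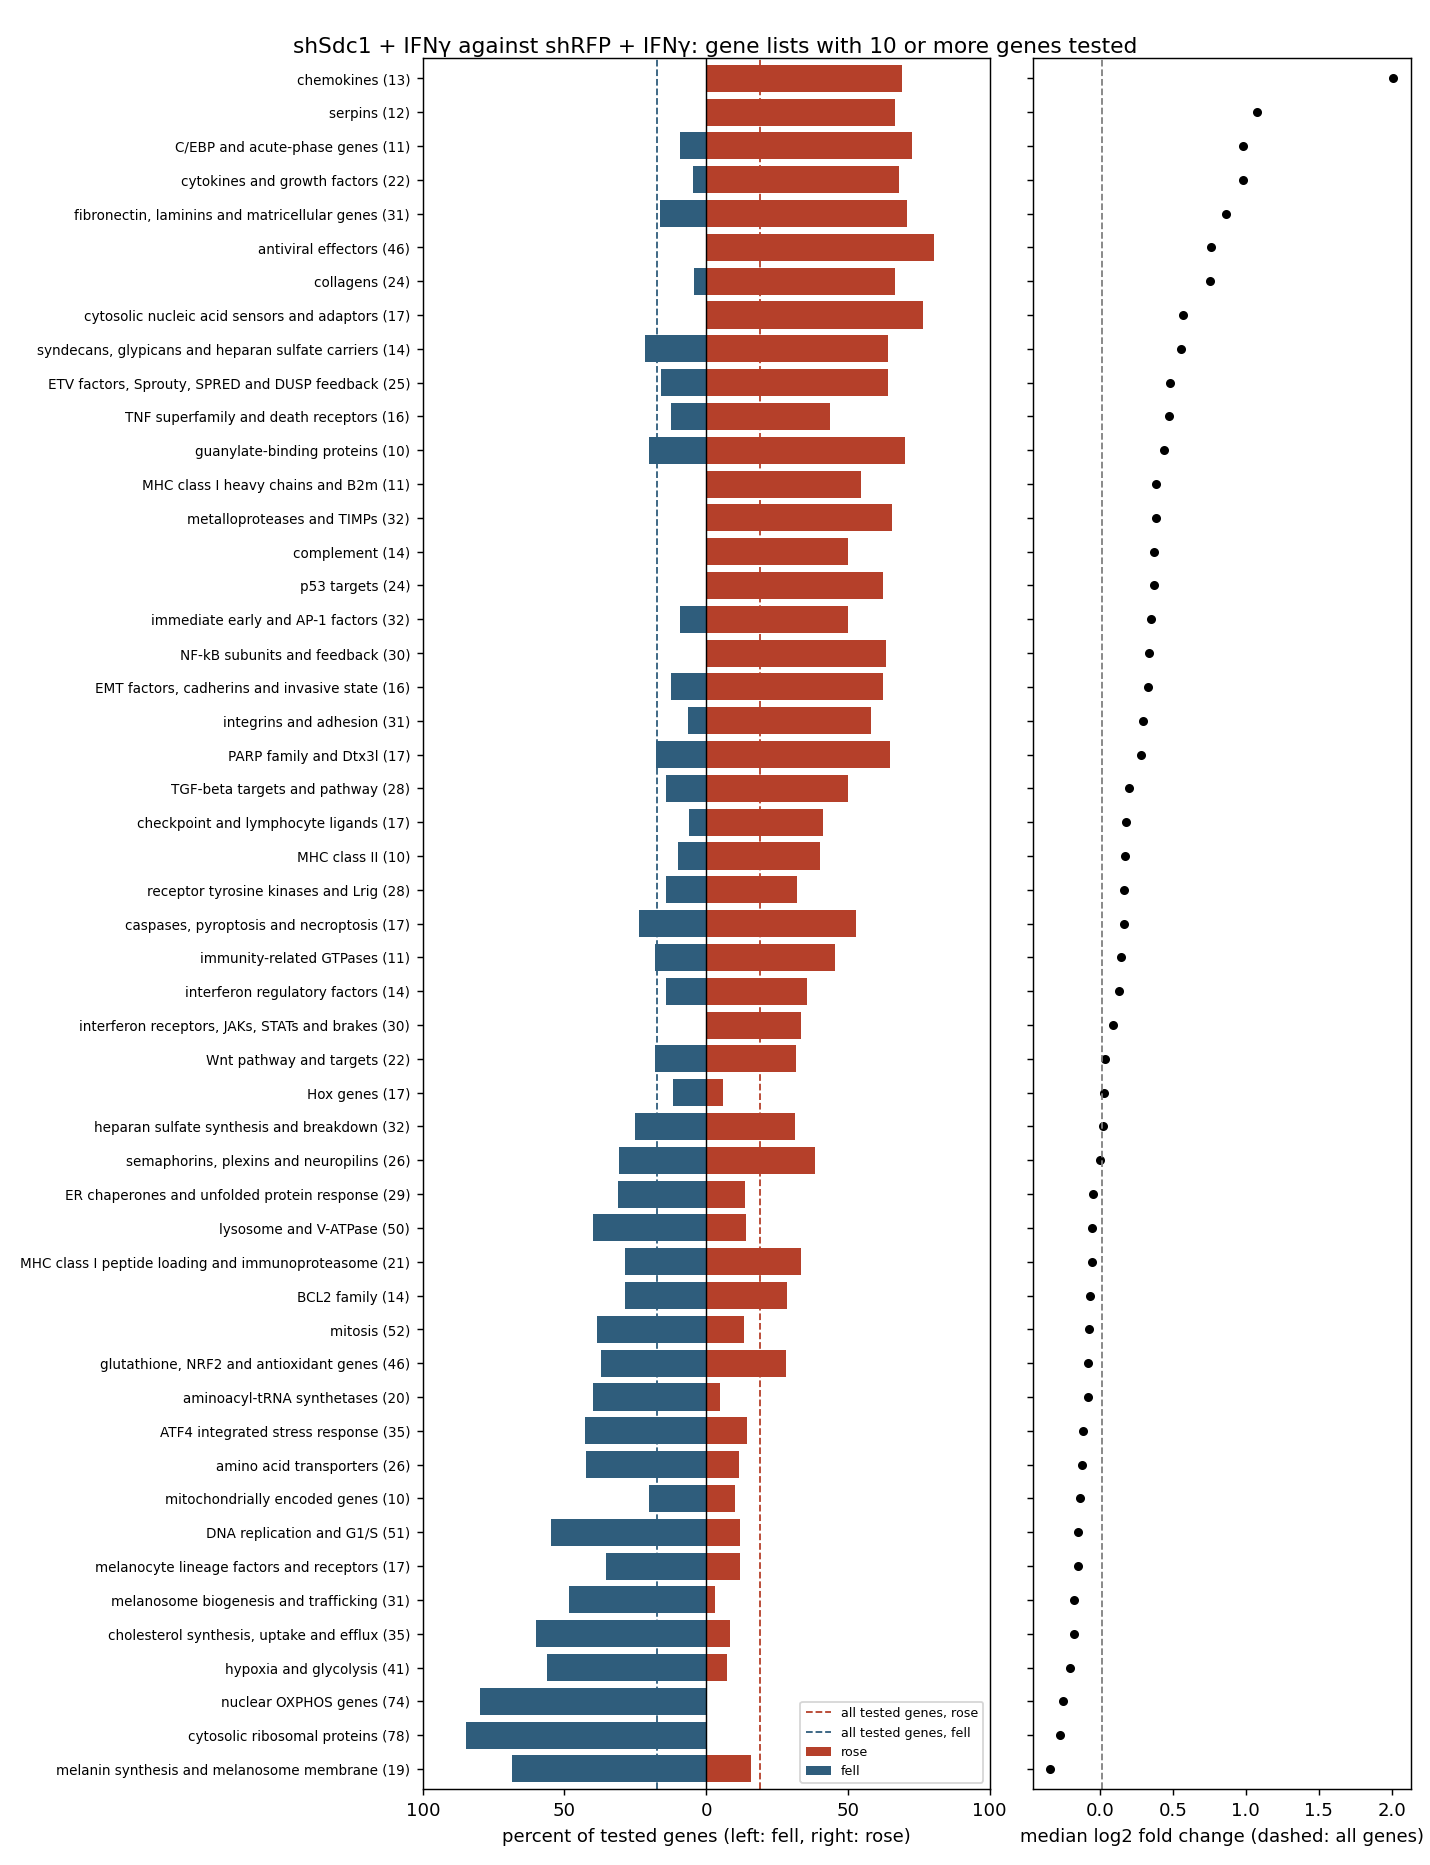
Left, percent of the tested genes of each list that rose or fell in shSdc1 against shRFP, both with IFNγ, with dashed lines at 18.9% and 17.4%, the shares of all tested genes. Right, the median log2 fold change of each list; chemokines and antiviral effectors lie above the dashed median of all genes, and ribosomal protein and OXPHOS genes below it.

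The NF-kB pathway, which inflammatory signals use, rose at its own feedback genes. Of 30 subunits, kinases and inhibitors 19 rose and 11 did not pass. For 8 the knockdown effect with IFNγ was above that without, against 4.58% of all genes. Nfkbia, the inhibitor that NF-kB induces to end its own activity, was at 26.4, 27.5 and 30.3 CPM in the control and 73.4, 75.1 and 70.04 CPM in the knockdown. Relb, the subunit of the alternative pathway, was at 6.81, 7.16 and 9.09 and 23.4, 23.1 and 20.7 CPM, and Tnfaip3 (A20), a brake on the kinase complex, rose by 1.59 ± 0.23. The knockdown libraries were above every control library for each of these genes. Nfkbie, a further inhibitor, rose by 1.43 ± 0.089, and Bcl3, a nuclear co-regulator, by 2.34 ± 0.34. The kinases Chuk and Ikbkb and the scaffold Ikbkg, by contrast, changed by 0.089 ± 0.047, 0.098 ± 0.052 and 0.039 ± 0.045 and did not pass. The kB motif was in 37.5% of the 24 promoters of this list.

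Of the C/EBP and acute-phase genes 8 of 11 rose and 1 fell. Cebpd, a transcription factor of the acute-phase response, was at 1.32, 1.93 and 1.69 CPM in the control and 7.999, 9.10 and 8.40 CPM in the knockdown, and its effect without IFNγ was 0.52 ± 0.19, a difference of 1.83 ± 0.27 (adjusted p = 0.000433). Cp (ceruloplasmin), a copper-carrying ferroxidase, had the largest gain in CPM, a scale that also grows with transcript length, from 219, 182 and 224 CPM to 928, 979 and 979 CPM. Lcn2, an iron-binding defence protein, had 3 counts in the control and 141 in the knockdown libraries, a ratio of 42.2 with an exact 95% interval of 14.1 to 207. Nos2, the inducible nitric oxide synthase that IFNγ and NF-kB activate together, had 2 counts and 182 counts, a ratio of 81.6 (22.3 to 679). In the complement list 7 of 14 rose. C3, the central component, had 4 counts in the control libraries, all of them in replicate 2, and 527 in the knockdown. Lcn2, Nos2 and C3 were tested only through libraries of other groups, which favoured a rise. C1s1 and C1ra, proteases of the classical pathway, rose from 7.20 ± 2.08 to 57.6 ± 8.72 CPM and from 65.3 ± 3.08 to 126 ± 5.19 CPM, and Masp1, of the lectin pathway, from 234 ± 13.1 to 474 ± 16.3 CPM. Of the serpins, inhibitors of proteases, 8 of 12 rose, a count that became 5 without shSdc1 with IFNγ replicate 2. Serpinb1a, an inhibitor of neutrophil proteases, stood at 0.331, 0.249 and 0.282 CPM in the control and at 9.29, 7.74 and 7.26 CPM in the knockdown. Serpinb9, the granzyme B inhibitor, did not pass at -0.093 ± 0.080. Of the apolipoprotein L genes 4 of 5 rose, Apol6 from 45.8 to 91.7 CPM.

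The inflammatory caspases Casp4 and Casp12 rose. Of 17 genes for caspases, pyroptosis and necroptosis 9 rose and 4 fell. Casp4 (caspase-11), the sensor of cytosolic endotoxin, was at 1.26, 0.623 and 1.27 CPM in the control and at 7.36, 9.75 and 8.66 CPM in the knockdown, and Casp12, its neighbour in the genome, at 9.92, 7.73 and 10.3 and 47.2, 48.1 and 43.4 CPM. Gsdmd, the pore-forming target of caspase-11, rose by 0.57 ± 0.095. The apoptotic caspase Casp8 did not pass at 0.0091 ± 0.048, and Casp2 fell by 0.21 on the log2 scale. In the BCL2 family 4 of 14 rose and 4 fell, where 18.9% of all tested genes rose and 17.4% fell. Bid, which links death receptors to mitochondria, rose by 0.69 ± 0.045, and Bnip3 and Bnip3l, which act in mitophagy, fell, with changes of -0.73 ± 0.13 and -0.49 ± 0.055. Of the p53 targets 15 of 24 rose and 9 did not pass. Plk2, a kinase induced by DNA damage, was at 3.90, 4.24 and 4.30 CPM in the control and 23.7, 23.8 and 18.7 CPM in the knockdown. Ccng1 and Cdkn1a, the cell-cycle inhibitor p21, rose by 0.53 ± 0.091 and 0.47 ± 0.076, and Bax and Zmat3 did not pass at -0.22 ± 0.097 and -0.092 ± 0.054.

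Pigment genes moved the other way. Of 19 genes for melanin synthesis and the melanosome membrane 13 fell and 3 rose, with a median of -0.34, against 17.4% lower among all genes. The promoters of 3 of the genes that fell are shown because they hold the letters TCATGTG, the M-box to which MITF is known to bind. They are the 250 bases before the RefSeq start, build GRCm38.p6, 5′ to 3′ on the gene's strand, with the match in capitals. Tyr lies at chr7:87493513-87493762 on the minus strand with the match at -22, and Trpm1 at chr7:64153585-64153834 on the plus strand with the match at -142, in 1 of its 2 listed promoters. Tspan10 lies at chr11:120442381-120442630 on the plus strand with the match at -21 on the opposite strand, where it reads CACATGA.
Tyr: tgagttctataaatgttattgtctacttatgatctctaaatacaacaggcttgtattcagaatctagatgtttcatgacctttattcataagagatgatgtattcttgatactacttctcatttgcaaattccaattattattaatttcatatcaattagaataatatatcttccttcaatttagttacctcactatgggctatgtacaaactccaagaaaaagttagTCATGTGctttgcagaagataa
Trpm1: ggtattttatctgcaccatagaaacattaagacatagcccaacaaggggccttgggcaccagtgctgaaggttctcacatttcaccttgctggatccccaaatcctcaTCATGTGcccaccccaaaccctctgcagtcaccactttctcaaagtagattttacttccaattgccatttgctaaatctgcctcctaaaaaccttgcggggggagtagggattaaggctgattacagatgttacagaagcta
Tspan10: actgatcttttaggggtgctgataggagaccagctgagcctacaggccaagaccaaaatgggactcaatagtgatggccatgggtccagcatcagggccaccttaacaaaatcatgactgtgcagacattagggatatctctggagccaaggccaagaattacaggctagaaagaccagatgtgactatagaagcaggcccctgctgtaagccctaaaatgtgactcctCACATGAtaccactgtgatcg
The M-box was found on either strand in 7 of the 15 promoters of the list (46.7%) and in 2.68% of all tested genes with a promoter.

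Trpm1, a channel known as a marker of differentiated melanocytes, was at 123, 132 and 116 CPM in the control and 39.03, 36.5 and 41.7 CPM in the knockdown. Oca2, which sets the pH of the melanosome, was at 12.4, 12.9 and 11.2 and 3.06, 3.07 and 3.07 CPM, and Tspan10, a tetraspanin, at 273, 303 and 264 and 105, 96.5 and 109 CPM. For each of the 3 the lowest control library lay above the highest knockdown library. Mlana, a melanosome protein read by T cells, fell by 0.97 on the log2 scale, and Slc24a5 and Gpr143, an exchanger and a receptor of the melanosome, fell by 1.22 and 1.25 on that scale. The enzymes that make the pigment changed less: Tyr, the rate-limiting tyrosinase, was at 344, 335 and 354 CPM in the control and 249.9, 245 and 269.7 CPM in the knockdown, a change of -0.43 ± 0.044, and Tyrp1 and Dct fell, with changes of -0.22 ± 0.044 and -0.18 ± 0.034. Pmel, which forms the fibrils of the melanosome, had the largest loss in CPM, from 4299.6 ± 237 to 1524 ± 119 CPM. Its gene lies next to Cdk2, which fell by 0.98 on the log2 scale; both genes overlap, and with the strand setting not given their reads cannot be told apart. Slc7a11, which imports the cystine used for pheomelanin and for glutathione, and Atp7a, the copper pump that loads tyrosinase, rose by 0.48 ± 0.095 and 0.39 ± 0.056.

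Of the genes for building and moving melanosomes 15 of 31 fell and 1 rose. Rab27a and Mlph, which tether melanosomes to the motor Myo5a, were lower together: Rab27a was at 171, 196 and 167 CPM in the control and 74.2, 71.5 and 78.4 CPM in the knockdown, and Mlph fell by 0.80 and Myo5a fell by 0.39 on the log2 scale. Sytl2, a RAB27 effector, and Bloc1s6, of a complex that sorts cargo to melanosomes, fell, with changes of -1.18 ± 0.052 and -0.71 ± 0.079. The AP-3 coat, which serves lysosomes too, was nearly level, with Ap3b1 and Ap3d1 at -0.010 ± 0.044 and -0.021 ± 0.040, neither passing. In the list of lineage factors and receptors, which also holds St3gal6 and Cdk2, 6 of 17 genes fell and 2 rose. St3gal6 and Cdk2 are among the 6, and the reads of Cdk2 cannot be told apart from those of Pmel. Mitf was at 360.2, 344 and 378 CPM in the control and at 218, 227 and 254 CPM in the knockdown libraries, a change of -0.63 ± 0.055 (adjusted p = 4.67e-08). Sox10 and Pax3, which act above Mitf in the lineage, did not pass at -0.049 ± 0.041 and -0.10 ± 0.040. Tfap2a, a partner factor, and Mc1r, the melanocortin receptor, fell, with changes of -0.42 ± 0.055 and -0.39 ± 0.051. Without IFNγ 10 of the 17 genes of that list fell, and of the 19 melanin genes 12 fell and 2 rose. Of all tested genes 14.6% fell and 14% rose there. Mitf changed by -0.61 ± 0.055 and Tspan10 by -1.17 ± 0.054 there. For 5 of the 19 melanin genes, Gpnmb, Slc45a2, Mlana, Gpr143 and Tspan10, the effect with IFNγ was below that without, against 5.15% of all genes.

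**Figure D3:**
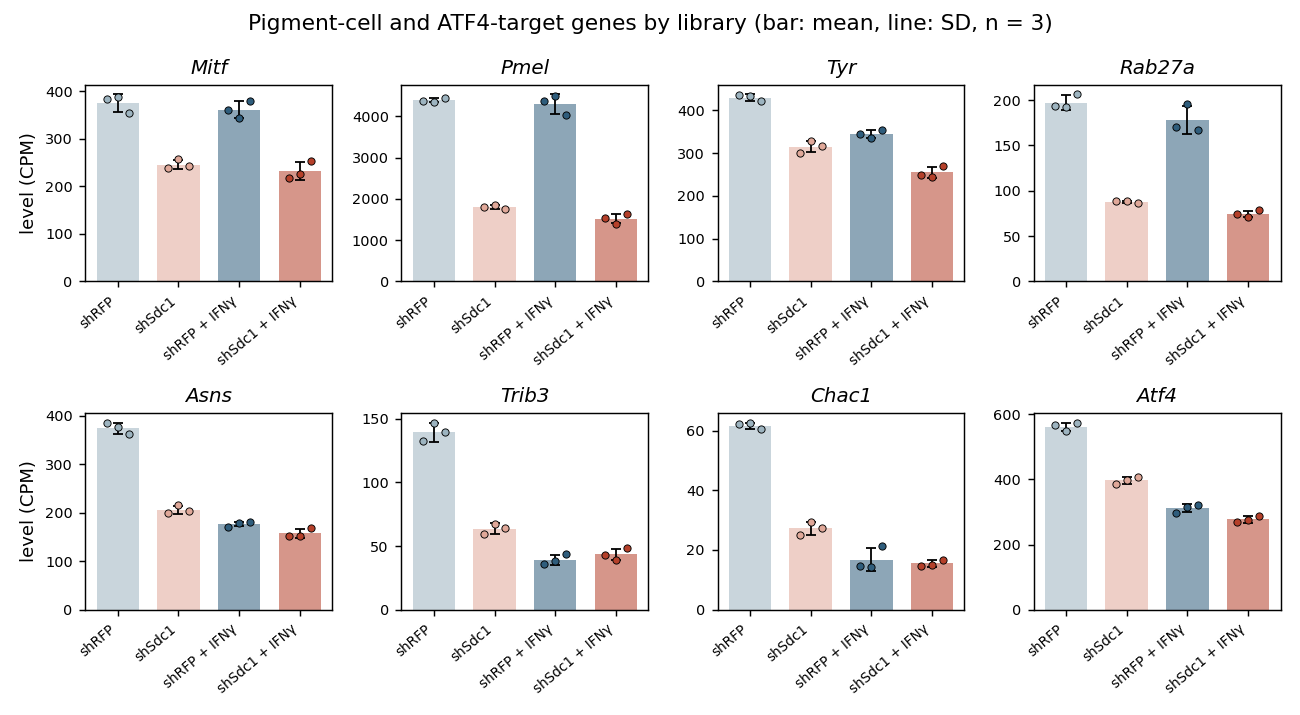
Levels in CPM of 4 pigment-cell genes and 4 genes of the ATF4 response in all 4 groups: points are the 3 libraries of a group, bars the mean and lines the SD. Mitf, Pmel, Tyr and Rab27a are lower with shSdc1 with and without IFNγ, whereas Asns, Trib3 and Chac1 are far apart without IFNγ and closer with it.

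Most matrix genes rose in the knockdown. Many of them are long, and long transcripts rose more often, as described further on. Of 24 collagen genes 16 rose and 1 fell. Col5a1, of fibrillar collagen, was at 44.5, 32.8 and 42.7 CPM in the control and 91.1, 96.9 and 77.6 CPM in the knockdown, and Col4a1 and Col4a2, the basement membrane pair, rose by 0.47 ± 0.060 and 0.61 ± 0.061. Col12a1 and Col18a1 rose from 1.08 to 7.33 and from 0.707 to 4.46 CPM. Col1a2 was the member that fell, from 19.2 ± 1.13 to 8.05 ± 0.677 CPM, while Col1a1, its partner chain in type I collagen, rose by 1.36 ± 0.33 from 1.11 CPM. Among fibronectin, laminins and matricellular genes 22 of 31 rose and 5 fell. Fn1 (fibronectin) was at 129, 120.1 and 120.0 CPM in the control and 627, 593 and 602 CPM in the knockdown, and Sparc, a collagen-binding glycoprotein, at 386, 380.1 and 374 and 985, 983 and 967 CPM. Thbs1, which activates latent TGF-beta, rose by 2.43 ± 0.064, and by 1.31 ± 0.099 more with IFNγ than without. Sparcl1 and Nid1, a relative of Sparc and a linker of basement membranes, fell, with changes of -1.04 ± 0.060 and -0.79 ± 0.069.

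Of the metalloproteases, their inhibitors and related enzymes 21 of 32 rose and 11 did not pass. Adamts4, an aggrecanase, was at 64.6, 53.02 and 73.3 CPM in the control and at 203, 196 and 183 CPM in the knockdown, and Adamts1 rose from 378 ± 41.3 to 770.2 ± 49.5 CPM. Adamts7 rose from 0.763 to 6.39 CPM, and Loxl4, which crosslinks collagen, from 0.679 to 3.97 CPM. Mmp14 and Adam15 did not pass at 0.038 ± 0.044 and 0.035 ± 0.071. In the list of integrins and adhesion genes 18 of 31 rose and 2 fell. Itga5, the fibronectin receptor chain, was at 9.26, 8.16 and 9.44 CPM in the control and 27.00, 27.8 and 25.7 CPM in the knockdown, and Mcam, a melanoma adhesion molecule, at 364, 339 and 352 and 821, 845 and 784 CPM. Itgb8, whose integrin frees TGF-beta, rose by 2.30 ± 0.19. Itgb1, the common partner chain, and Cd44, the hyaluronan receptor, did not pass at 0.018 ± 0.034 and -0.046 ± 0.033. Of the EMT and invasive-state genes 10 of 16 rose and 2 fell. Axl, a receptor kinase of the dedifferentiated melanoma state, was at 15.8, 14.9 and 15.8 CPM in the control and 52.99, 52.4 and 46.3 CPM in the knockdown, and L1cam and Cdh2 (N-cadherin) rose by 0.59 ± 0.050 and 0.54 ± 0.046. Snai2 and Zeb2, transcription factors of the melanocyte lineage, did not pass at 0.066 ± 0.12 and 0.082 ± 0.067.

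Among semaphorins, plexins and neuropilins 10 of 26 rose and 8 fell, a fallen count that became 5 without shSdc1 with IFNγ replicate 2 or replicate 3. The secreted class 3 ligands Sema3f and Sema3c, which bind neuropilins, rose from 1.58 to 14.4 and from 6.45 to 26.8 CPM. Sema6d, a membrane-bound ligand, was among the genes with the largest falls. It was at 9.33, 11.3 and 10.6 CPM in the control and 1.13, 2.24 and 1.80 CPM in the knockdown, and its receptor Plxna1 fell by 0.64 on the log2 scale from 592 CPM.

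Receptor tyrosine kinases had 9 of 28 risen and 4 fallen. Lrig1, which promotes the degradation of ERBB receptors, was at 0.529, 0.436 and 0.563 CPM in the control and 9.66, 11.8 and 9.66 CPM in the knockdown. Epha2 rose from 0.403 to 2.53 CPM, while Epha3 and Erbb3, the neuregulin receptor of melanocytes, fell, with changes of -0.56 ± 0.070 and -0.42 ± 0.049. In the list of ETV factors and feedback inhibitors of the MAP kinase pathway 16 of 25 rose and 4 fell. Ccnd1 (cyclin D1) was at 98.2, 90.2 and 98.3 CPM in the control and 228, 242 and 231 CPM in the knockdown. Etv5 rose by 1.21 ± 0.18 with IFNγ and by 2.42 without, a difference of -1.21 ± 0.25 (adjusted p = 0.00541). Etv4, at 3 counts in the control and 31 in the knockdown, had a ratio of 9.27 (exact 95% interval 2.89 to 47.4). Of the immediate early and AP-1 genes 16 of 32 rose and 3 fell. Fosl2 and Jun, which pair in AP-1, were at 25.6, 21.9 and 32.96 and 77.9, 73.95 and 95.8 CPM in the control and 96.3, 100.5 and 90.6 and 164, 182 and 159 CPM in the knockdown. Nr4a3, a nuclear receptor of the immediate early class, fell by 1.23 on the log2 scale, and Myc did not pass at 0.11 ± 0.048. In the TGF-beta list 14 of 28 rose and 4 fell. Tgfb1, its main ligand, was at 0.794, 0.997 and 1.76 CPM in the control and 4.03, 4.08 and 4.53 CPM in the knockdown, and Ltbp1, which holds the ligand in the matrix, rose from 0.309 to 2.17 CPM. Id2 and Id1, targets of BMP signals, moved apart: Id2 fell by 1.13 on the log2 scale from 105 CPM and Id1 rose by 1.88 ± 0.46 from 0.661 CPM. Of the Wnt genes 7 of 22 rose and 4 fell, where 18.9% of all tested genes rose and 17.4% fell. Axin2, the common target gene, and Fzd7, a receptor, were among the 4 that fell, with changes of -1.002 ± 0.17 and -0.69 ± 0.042.

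Targets of ATF4, the transcription factor of the integrated stress response to amino acid shortage, behaved differently with and without IFNγ. With IFNγ 5 of 35 rose, 15 fell and 15 did not pass, with a median of -0.12. Without IFNγ 2 rose and 31 fell, with a median of -0.67, where 14% of all genes rose and 14.6% fell. The knockdown effect with IFNγ lay above that without for 29 of the 35 genes, against 4.58% of all genes, and for 25 without shSdc1 replicate 3. IFNγ itself lowered 32 of them in control cells, with a median of -0.91 (14.4% of all genes fell), and 22 in knockdown cells, with a median of -0.28 (13% of all genes fell). These comparisons share libraries, so their values are set side by side only. Ddit4, an inhibitor of mTORC1, shows the pattern: it was at 65.6, 68.4 and 71.2 CPM in control and 25.9, 28.3 and 26.6 CPM in knockdown cells without IFNγ, and at 31.1, 27.8 and 38.8 and 23.03, 22.7 and 27.2 CPM with it. Asns (asparagine synthetase) was at 385, 376 and 362 and 199.5, 215 and 203 CPM without IFNγ and at 171, 179 and 180.4 and 152, 153 and 168 CPM with it. The groups were far apart without the cytokine and closer with it, where both genes still fell in the knockdown. With IFNγ Ddit4 changed by -0.422 (edgeR adjusted p = 0.002215) and Asns by -0.1668 (edgeR adjusted p = 0.009985). Chac1, which degrades glutathione, and Trib3, a pseudokinase that restrains the pathway, did not pass with IFNγ at -0.12 ± 0.12 and 0.15 ± 0.080, and had changed by -1.18 ± 0.096 and -1.13 ± 0.073 without it. Aldh1l2, of mitochondrial folate metabolism, had opposite signs, 0.48 ± 0.075 with and -0.55 ± 0.072 without IFNγ. Atf4 transcript fell by 0.17 on the log2 scale with IFNγ, and Cbs, which makes cystathionine, rose by 2.87 ± 0.38 from 0.303 CPM.

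Several genes of amino acid supply are also known as ATF4 targets. Of the aminoacyl-tRNA synthetases 8 of 20 fell and 1 rose with IFNγ. For 9 the effect was above that without IFNγ, against 4.58% of all genes. Mars and Iars, for methionine and isoleucine, fell, with changes of -0.53 ± 0.042 and -0.45 ± 0.043. Of the amino acid transporters 11 of 26 fell and 3 rose. Slc38a3, a glutamine transporter of the SNAT family, was at 0.397, 0.623 and 1.06 CPM in the control and 13.05, 9.69 and 10.3 CPM in the knockdown, whereas Slc6a6, the taurine transporter, fell by 0.47 on the log2 scale from 1104 CPM. Among ER chaperones and unfolded protein response genes 9 of 29 fell and 4 rose. Ero1l, an ER oxidase, rose by 0.55 ± 0.046, Herpud1 fell by 0.41 on the log2 scale, and Edem1 and Hyou1 did not pass at 0.0089 ± 0.041 and -0.057 ± 0.037.

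Of the glutathione, NRF2 and antioxidant genes 13 of 46 rose and 17 fell, and the 13 became 8 without shSdc1 with IFNγ replicate 1. For 17 genes the effect with IFNγ was below that without, against 5.15% of all genes. Of the 46, 19 lie in the shortest of 5 classes by exon length. The median difference over all genes of that class was -0.0548. Gsto1, a glutathione transferase, was at 37.2, 37.6 and 39.2 CPM in the control and 7.62, 7.86 and 5.998 CPM in the knockdown. G6pdx, which opens the pentose phosphate path to NADPH, was at 305, 301 and 283 CPM in the control and 162, 163 and 151 CPM in the knockdown libraries. Xdh, xanthine dehydrogenase, rose from 5.88 ± 1.35 to 37.1 ± 4.36 CPM. Txnrd1 and Gpx4, thioredoxin reductase and the lipid peroxidase, did not pass at -0.016 ± 0.036 and -0.10 ± 0.047.

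Among lipid, glycolytic and lysosomal genes more fell than rose. Of the cholesterol genes 21 of 35 fell, 3 rose and 11 did not pass. Apoe, the lipoprotein that exports cholesterol, was at 767, 841 and 985 CPM in the control and 599, 627 and 602 CPM in the knockdown, and Lss and Insig1, of synthesis and its feedback, fell, with changes of -0.39 ± 0.049 and -0.38 ± 0.048. Srebf2, a regulator of these genes, did not pass at -0.091 ± 0.041. Of the hypoxia and glycolysis genes 23 of 41 fell and 3 rose. Ndrg1 and Bnip3, targets of HIF-1, fell, with changes of -0.86 ± 0.054 and -0.73 ± 0.13, Pkm, the pyruvate kinase, fell from 3858 ± 197 to 3169 ± 98.3 CPM, and Aldoc fell by 0.65 on the log2 scale. Of the lysosome and V-ATPase genes 20 of 50 fell, 7 rose and 23 did not pass. Atp6v0d1 and Atp6v0a1, of the membrane part of the proton pump, fell, with changes of -0.77 ± 0.048 and -0.75 ± 0.055, and Lamp1 and Lamp2 did not pass at -0.048 ± 0.031 and -0.052 ± 0.040.

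Of the nuclear genes for oxidative phosphorylation 59 of 74 fell and 15 did not pass, with a median of -0.25 and a range of -0.54 to 0.15. Members of each complex fell: Ndufb3 of complex I changed by -0.43 ± 0.063, Sdhb of complex II by -0.39 ± 0.054, Uqcrfs1 of complex III by -0.40 ± 0.070 and Atp5e of the ATP synthase by -0.42 ± 0.056. Of the 10 mitochondrially encoded genes 1 rose and 2 fell; mt-Nd4 and mt-Nd1 did not pass at -0.0052 ± 0.041 and -0.051 ± 0.033. Of the cytosolic ribosomal proteins 66 of 78 fell and 12 did not pass, with a median of -0.27. Rpl37a was at 199, 191 and 169 CPM in the control and 137, 125 and 137 CPM in the knockdown, and Rpl38 at 113, 116 and 84.5 and 78.4, 73.5 and 76.1 CPM. Each control library lay above each knockdown library for both genes. These genes have many pseudogene copies that can share their reads. Without IFNγ 3 of the 78 rose and 4 fell. For 53 the effect with IFNγ was below that without, against 5.15% of all genes.

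Transcript length moved with the changes. Over 5 classes of equal size by exon length, from shortest to longest, the median change with IFNγ was -0.06, -0.000568, 0.0153, 0.0307 and 0.0673, and the share of genes that rose went from 7.91% to 29.5%. In the shortest class the 47 ribosomal protein genes had a median of -0.275, the 45 oxidative phosphorylation genes one of -0.265 and the other 2650 genes one of -0.0464. In a fit with an offset for length in each library, added after seeing the data, 64 ribosomal protein genes fell with a median of -0.2373, and 47 oxidative phosphorylation genes fell with a median of -0.2003. The same fit left 37 antiviral effectors and 9 chemokines higher and 13 melanin genes lower. The longest class held 13 of 31 fibronectin, laminin and matricellular genes, 8 of 24 collagen genes and 12 of 31 integrin and adhesion genes. It also held 15 of 26 semaphorin, plexin and neuropilin genes and 14 of 28 receptor tyrosine kinase genes. Of the NF-kB list 10 of 30 genes lay in it, and of the EMT and invasive-state list 6 of 16. Counts of these lists with the length offset are not given here. The part of RNA quality or library preparation in the length trend was not tested.

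**Figure D4:**
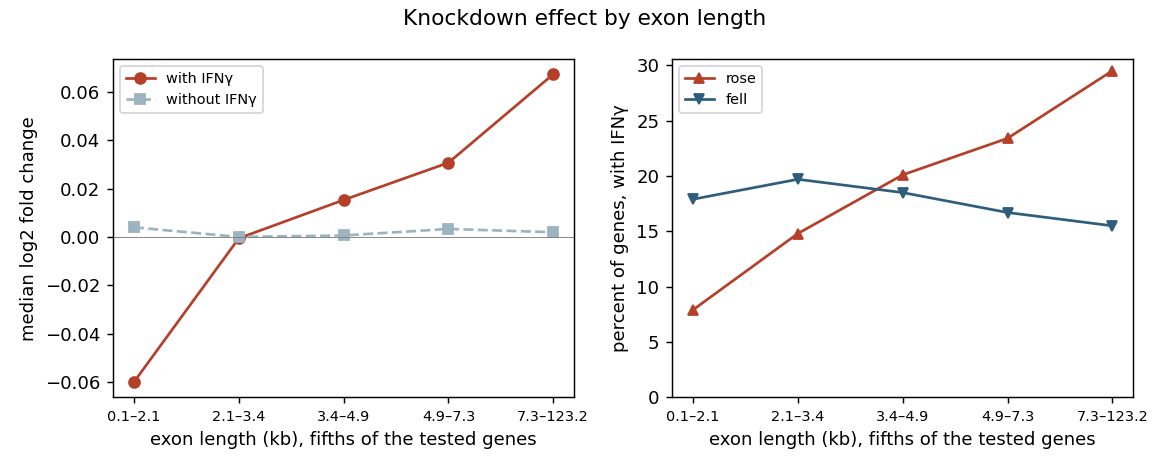
Left, median log2 fold change of shSdc1 against shRFP in 5 equal classes of the tested genes by exon length in kb, with and without IFNγ; right, percent of genes that rose or fell with IFNγ. The median with IFNγ climbs from -0.06 in the shortest class to 0.0673 in the longest, and the share that rose from 7.91% to 29.5%.

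More cell-cycle genes fell than rose, and many did not pass. Of the DNA replication and G1/S genes 28 of 51 fell, 6 rose and 17 did not pass. For 19 the effect with IFNγ was below that without, against 5.15% of all genes. Gins4, of the replicative helicase, fell by 0.51, Rfc4, of the clamp loader, fell by 0.49, and Tk1 (thymidine kinase) fell by 0.40 on the log2 scale, while Cdk6, the partner of cyclin D1, rose by 1.08 ± 0.063. Of the mitosis genes 20 of 52 fell, 7 rose and 25 did not pass, with the fallen count at 12 without shRFP with IFNγ replicate 2 and 13 without shSdc1 with IFNγ replicate 1. Cdc25b and Ccnb2, which drive entry into mitosis, fell, with changes of -0.39 ± 0.056 and -0.35 ± 0.052, Cenpe and Cenpf, of the kinetochore, rose by 0.45 ± 0.11 and 0.40 ± 0.10, and Mki67 did not pass at -0.0054 ± 0.098. In these bulk libraries a lower share of cycling or pigmented cells and less RNA per cell cannot be told apart.

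Markers of other cell types were counted as well. The 9 melanoma cell markers summed to 16940 to 18500 CPM in the control and 12020 to 13440 CPM in the knockdown libraries, and 7 of them fell. Of 22 leukocyte markers 13 were at 0 counts and only Cd68 and Lyz2 were tested. Both rose, and Cd68 and Lyz2 together summed to 5.73 to 8.38 CPM in the control and 15.8 to 16.5 CPM in the knockdown. Of the fibroblast markers Dcn and Thy1 had 0 counts over the 6 libraries with IFNγ. Lum, Col3a1, Acta2 and Fap had 3, 8, 9 and 15, and none of these genes was tested. The 4 fibroblast markers tested summed to 31.4 to 35.7 CPM in the control and 23.2 to 26.3 CPM in the knockdown libraries. Of these 4 Col1a1 rose, Col1a2 fell and Pdgfra and Pdgfrb did not pass at 0.025 ± 0.22 and -0.020 ± 0.12. Of the 6 Schwann and neuronal markers tested 3 rose and 2 fell, and they summed to 547 to 618 CPM in the control and 638 to 671 CPM in the knockdown. Ngfr, Map2 and Tubb3 rose by 2.74 ± 0.29, 1.29 ± 0.11 and 0.44 ± 0.044, and Gfap and Mbp fell, with changes of -0.81 ± 0.16 and -0.18 ± 0.054. The call of Mbp ended without shRFP with IFNγ replicate 1 or 3 or shSdc1 with IFNγ replicate 3, with adjusted p up to 0.06861. The part of other cells in the changes of the chemokine, complement and matrix genes was not tested.

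The effect of the knockdown differed with and without IFNγ for 1371 genes (9.73%), 645 with a higher (4.58%) and 726 with a lower effect with IFNγ (5.15%). Without shSdc1 replicate 3, the library with a high share of counts in 1 entry, 1127 genes passed, 460 higher and 667 lower. Leaving out 1 library lowered the count by over 1.5 times in 4 cases: it was 789 without shSdc1 replicate 1, 822 without shSdc1 with IFNγ replicate 2, 839 without shRFP replicate 2 and 847 without shRFP replicate 1. Most directions were shared among the genes that passed both with and without IFNγ. Of these 1184 rose and 1199 fell in both, while 45 and 71 passed in opposite directions. The rest of the 5121 genes that passed with IFNγ did not pass without it. Each of both effects rests on 6 libraries of its own. Inpp1, an inositol phosphatase, had the largest positive difference, at 1.003, 1.07 and 1.24 and 1.58, 1.19 and 1.16 CPM in control and knockdown cells without IFNγ and 1.59, 0.623 and 2.25 and 6.66, 7.74 and 5.60 CPM with it. Hoxb9, a homeobox gene, was at 8.02, 7.24 and 5.87 and 7.17, 6.57 and 8.49 CPM without IFNγ and 1.79, 1.31 and 1.62 and 6.17, 5.49 and 5.86 CPM with it. In both genes the groups were close or overlapping without the cytokine and apart with it. Clec2d, a ligand of an inhibitory natural killer receptor, changed by 2.45 ± 0.28 without and 1.05 ± 0.13 with IFNγ, and Tap2, at 0.77 ± 0.27 without IFNγ, did not pass there and changed by -0.67 ± 0.066 with it.

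**Figure D5:**
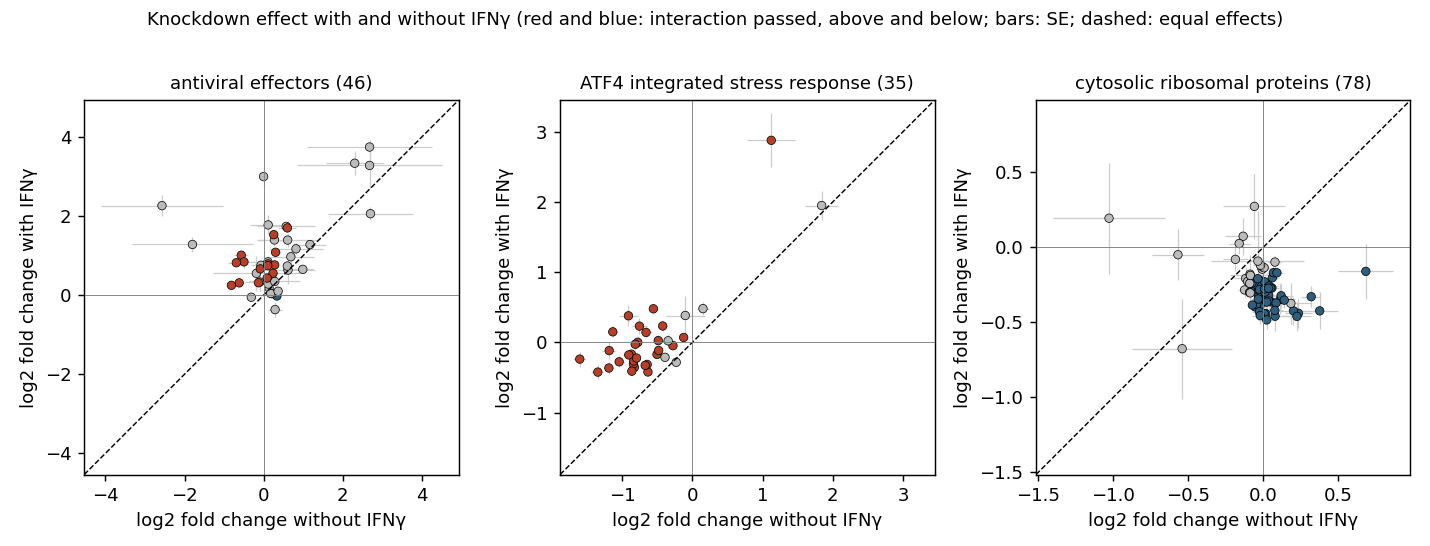
Knockdown effect with IFNγ (vertical) against that without (horizontal), as log2 fold changes with SE, one point per tested gene, for antiviral effectors, ATF4 targets and ribosomal proteins; red and blue points passed the test of a higher or lower effect with IFNγ, and the dashed line marks equal effects. ATF4 targets lie mostly above the line and ribosomal protein genes mostly below it.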

How the data were processed

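The authors deposited raw counts per gene as whole numbers. Tools listed in the submitters' processing notes are HISAT2 2.0.5, Trimmomatic and HTSeq, with the build GRCm39. Neither annotation nor strand setting is given in the sources used here, and reads of overlapping antisense genes cannot be told apart. Symbols and exon lengths came from GENCODE M21 (GRCm38), promoters from RefSeq (GRCm38.p6), used for their letters only.

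After TMM scaling, filterByExpr kept genes at a count of 10 and a total of 15. The quasi-likelihood test of edgeR 4.0.16 (R 4.3.3) used all 12 libraries and a mean per group. It had 8 residual degrees of freedom, a common biological coefficient of variation of 0.0633 and a prior count of 0.125. P-values are two-sided and adjusted over all tested genes at 0.05. With 1 to 3 control counts the depth-scaled ratio of counts is given with an exact 95% interval, which covers counting error only. The script was tested on simulated counts.

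Genes and lists were chosen with earlier results of these data known. Named genes are Sdc1, the 12 highest and 12 lowest changes at 5 CPM or more with ranges apart, the 6 largest gains and losses in CPM, up to 6 passing genes per list by size at 1 CPM or more, the 6 largest interactions each way and 18 interferon pathway genes; some genes of that rule are not reported here. Passing genes outside that rule were chosen after their values were seen: Agrn, Asns, Atp7a, Casp2, Ccl2, Cd47, Cdh2, Col4a1, Col4a2, Col5a1, Csf1, Cx3cl1, Dct, Erbb3, Etv4, Gbp2, Ifit1, Ifit3, Irgm1, Nid1, Oas1a, Oas2, Plxna1, Sdc3, Sdc4, Sdhb, Sparcl1, Tapbp and Uqcrfs1. Alternatives were DESeq2 size factors, the Wald test of DESeq2 1.42.0, scaling to the upper quartile, voom of limma 3.58.1, no filter, 1 CPM in 3 libraries, the 6 libraries with IFNγ, a block for the replicate number, a minimum fold of 1.5, leaving out each library, and a length offset added after seeing the data. Motifs and figures used Python 3.11.15 with numpy 2.4.6, pandas 2.3.3 and matplotlib 3.10.9.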

Additional observations from a re-analysis of the deposited data

Results flagged for a closer look

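The test of the difference between the knockdown effects with and without IFNγ singled out the results below, each a log2 fold change with IFNγ minus that without. Of all tested genes 645 had a higher and 726 a lower effect with IFNγ. The largest positive differences were 1.9232 for Inpp1, an inositol phosphatase, 1.8347 for Hoxb9, 1.8323 for the acute-phase factor Cebpd, 1.799 for Pacsin1, an endocytic adaptor, 1.7348 for the chromatin remodeller Chd5 and 1.5756 for the antiviral GTPase Mx1. The largest negative differences were -4.1798 for Casp12, -2.0219 for Apol9a, -1.5739 for Sarnp, -1.53 for the interferon-induced GTPase Ifi47, -1.4333 for the peptide transporter subunit Tap2 and -1.4051 for Clec2d, the ligand of an inhibitory natural killer receptor. Casp12 was at 0 counts in each shRFP library without IFNγ, so its fitted difference depends on the prior count and is no bound.

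The calls of 4 of these genes ended in other fits. Apol9a missed the threshold without shRFP replicate 1, shSdc1 replicate 1 or shSdc1 replicate 2, with adjusted p up to 0.2264, and with the DESeq2 Wald test and limma-voom. Casp12 missed it without shRFP replicate 1 or 2, with adjusted p up to 0.07485. Pacsin1 missed it without shRFP replicate 1 or 2 or shSdc1 replicate 2 or 3, with adjusted p up to 0.1162. Sarnp missed it without shRFP replicate 2 or 3, shSdc1 replicate 1, shRFP with IFNγ replicate 1 or shSdc1 with IFNγ replicate 1 or 2, and with the DESeq2 Wald test, with adjusted p up to 0.1024. Apol9a has a near-identical copy, Apol9b, so its reads may have been shared.

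Some named genes passed in opposite directions with and without IFNγ. The difference was 1.5756 for Mx1, 1.7348 for Chd5, 1.0315 for Aldh1l2 of mitochondrial folate metabolism, 0.78617 for the tubulin gene Tubb3 and 0.50556 for the class I heavy chain H2-D1, which were lower with shSdc1 without IFNγ and higher with it. It was -1.53 for Ifi47, -0.68884 for Irgm1, a regulator of immunity-related GTPases, -0.59872 for Atp5e of the ATP synthase and -0.35827 for the ER protein Manf, which went the other way. The knockdown call of Ifi47 with IFNγ ended without shSdc1 with IFNγ replicate 2. That of Manf ended without shRFP with IFNγ replicate 2 or shSdc1 with IFNγ replicate 2 or 3 and in the 6 libraries with IFNγ alone, with adjusted p up to 0.1209.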

How the results depend on the processing

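The count of 5121 genes that differed with IFNγ stayed within 1.5 times in every scaling, filter and test tried except the minimum fold. It was 4616 with the DESeq2 Wald test, 5157 with limma-voom, 4475 from the 6 libraries with IFNγ alone, 4940 with the length offset and 4146 to 5166 when 1 library was left out. When a change of over 1.5-fold was required, 524 genes remained past the threshold, 404 higher and 120 lower, and the interaction had 13 genes past it, 13 higher and 0 lower. That minimum fold asks for more than the test of no change, so fewer genes can pass. No gene called with IFNγ or in the interaction was called with the other sign in any alternative. With 1 library left out the interaction count ran from 789 to 1999, with 373 to 943 higher and 416 to 1056 lower. Beside the libraries already named, leaving out shRFP with IFNγ replicate 2 took the higher ones from 645 to 422; the cause was not tested. Sdc1 stayed between -1.855 and -1.662.

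Equal replicate numbers did not pair the libraries: deviations of same-numbered control and knockdown libraries with IFNγ correlated at -0.0207, -0.0423 and -0.0234. With the replicate number as a block 4847 genes passed, 2528 higher and 2319 lower, and in the interaction 1028, 500 higher and 528 lower. Of the counts of list genes in 1 direction, 24 of 112 moved by over 1.5 times without 1 library, and 19 of those held at most 5 genes; the others stand beside their lists. Genes with few counts limit the folds of genes that the control cells barely expressed. These include chemokine, cytokine and acute-phase genes, C3, Serpinb1a, Tnfrsf9, Lrig1 and Etv4. Those genes met the count filter only in libraries of other groups, which favours a rise over the control.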
